A study of Homo sapiens with 24 samples.

Results

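Human MHH-CALL4 cells were compared after 8 h with JQ1 at 500 nM and after 8 h with DMSO, its solvent. The comparison rests on 3 arrays of each treatment, 6 of the 12 core-level arrays in the series. The other 6 hold the same treatments in a second leukaemia line, MUTZ-5, and serve here for the shared estimate of spread and for the tests of a difference between the lines. MHH-CALL4 is an established culture line that the labels describe as acute lymphoblastic leukaemia, so each group is 1 line and not several patients. Total RNA was hybridised to Affymetrix arrays with probes along the exons of each gene, and each array was deposited once as a core summary and once as an extended summary of the same scan. Only the core values are used for results, and the extended ones as a check. Whether the 3 samples of a treatment were grown as separate cultures is not stated, and the p-values then reflect only how far these samples differ, which could be technical variation.

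BET proteins, such as BRD2 and BRD3, carry bromodomains that bind acetylated lysines of histones, and they bring the elongation kinase P-TEFb to promoters and enhancers. JQ1 is a small molecule that occupies the bromodomain pocket and releases BET proteins from chromatin. In lymphoid leukaemia the transcription factor MYC and the interleukin 7 receptor are the best known genes that depend on BET binding, and MYC in turn drives genes for ribosome assembly, nucleotide synthesis and amino acid uptake. B cell precursors also use a signalling chain of Src, Syk and Tec family kinases below the pre-B cell receptor.

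The values are RMA log2 values, so a difference of 1 between the group means is a 2-fold change. RMA sets all arrays to 1 distribution, and a change of total RNA per cell does not appear in such values. Differences below are JQ1 minus DMSO in log2 units, with the standard error of the limma fit, and a gene is called where its Benjamini-Hochberg adjusted p over 14232 genes is under 0.05. Array medians over these genes ran from 8.46 to 8.53. The median SD of a gene over 3 arrays was 0.087 under DMSO and 0.108 under JQ1. The third JQ1 array stood farthest from its group, with an SD of 0.229 for its difference from the mean of the other JQ1 arrays, against 0.135 to 0.198 for the other 5 arrays.

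Of 14232 genes, 4057 were called (28.5%), 1563 higher (11.0%) and 2494 lower (17.5%) after JQ1. Falls made up 61.5% of the calls. With each array centred on its median the split was 2162 higher and 2293 lower and 51.5% of calls were falls. The median difference over all genes was then 0.049. The balance of rises and falls among the calls thus depended on the scaling. Without the second DMSO array 1007 genes were called higher and 1940 lower. Most called changes were small, and 62.5% of them were under 0.5 log2. The median was 0.36 for genes called higher and -0.47 for genes called lower, beside 0.0065 for all genes.

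At least 2-fold changes were rarer and leaned further to the low side. There were 286 such genes (2.01%), of which 227 were lower (1.59%) and 59 higher (0.415%). Beyond 4-fold, 16 genes were lower and 1 was higher, the histone gene H2BC11. The DMSO and JQ1 values did not overlap for 6226 genes (43.7%), 2801 of them higher (19.7%) and 3425 lower (24.1%).

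**Figure D1:**
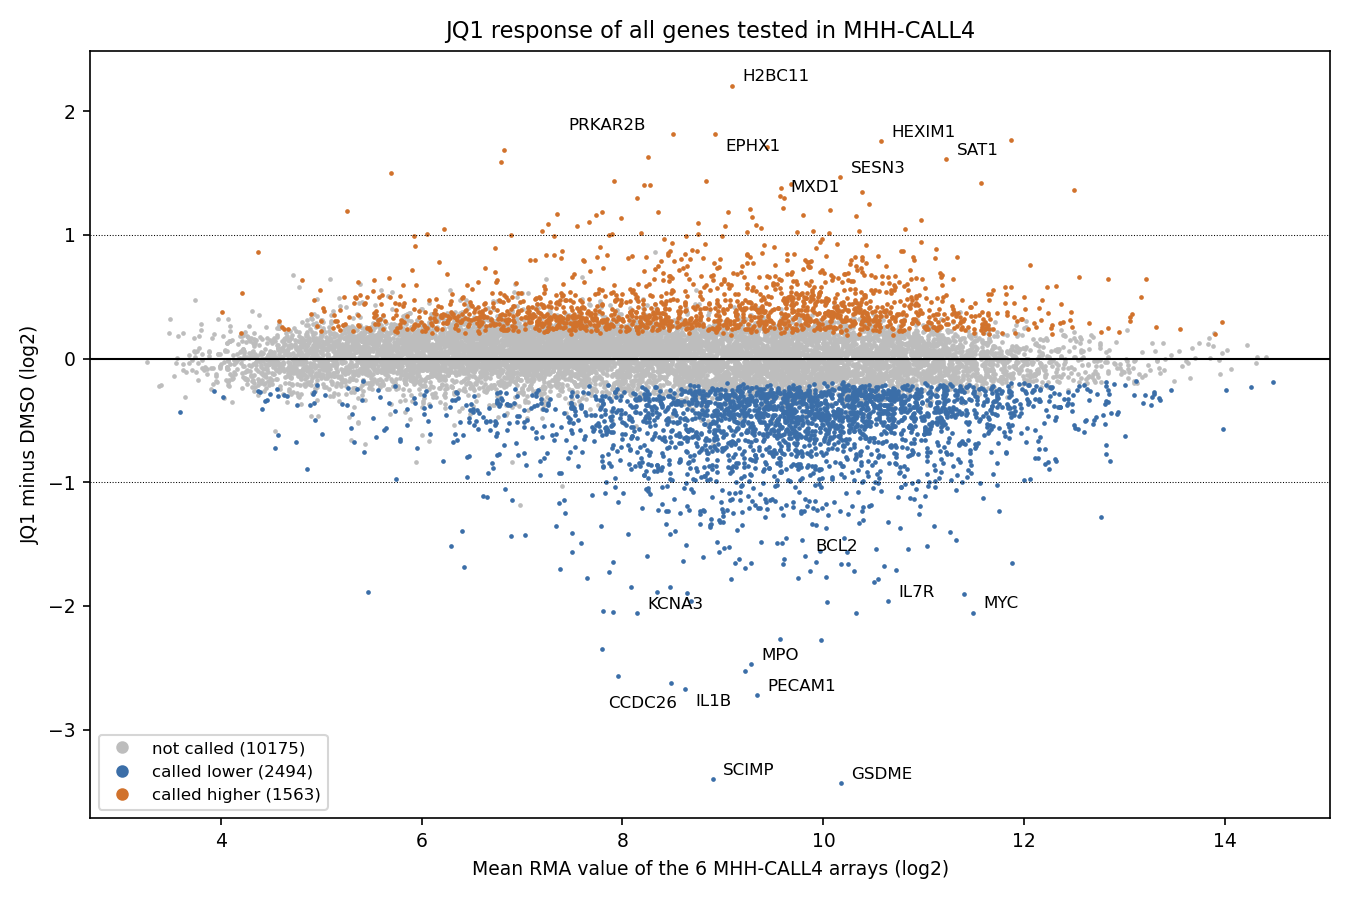
Each point is 1 of 14232 genes, with its mean RMA value over the 6 MHH-CALL4 arrays on the x axis and JQ1 minus DMSO, both in log2, on the y axis; colours mark the limma call and dotted lines 2-fold change. The 2494 genes called lower lie mostly at mid to high signal and reach beyond -3, while the 1563 called higher stay below 2.3.

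The share of genes called varied with signal level. In the lowest of 5 equal classes of mean signal, 3.55% of genes were called lower and 6.39% higher. In the highest class 29.2% were called lower and 11.6% higher. The fourth class gave 29.2% and 14.1%. The files give no detection calls, so how many genes of the lowest class lie at background is not known. A list of well expressed genes thus has a background nearer 29.2% than 17.5% for calls to the low side. The counts of each list below are to be read beside these shares, also where the shares are not repeated.

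**Figure D2:**
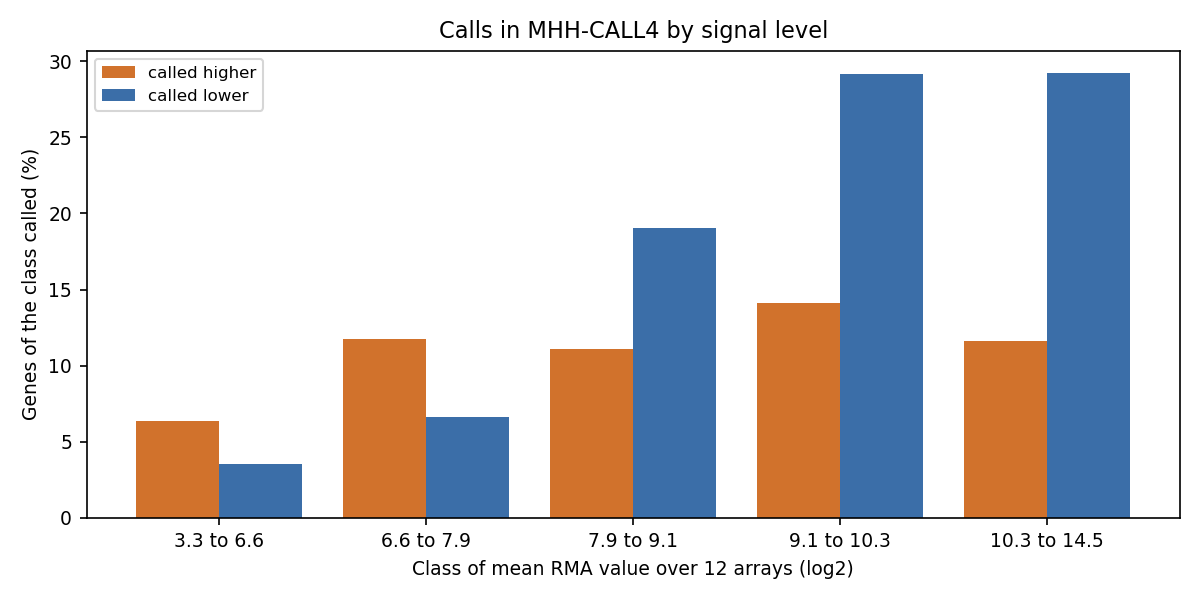
Bars give the percentage of genes called higher and called lower in 5 equal classes of mean RMA value over the 12 core arrays, with the log2 range of each class under its bars. Calls to the low side run from 3.55% in the lowest class to 29.2% in the top 2 classes, while calls to the high side lie between 6.39% and 14.1%.

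The largest falls struck genes of very different function. GSDME, a pore-forming gasdermin, read 11.93, 11.93 and 11.81 under DMSO and 8.55, 8.43 and 8.39 under JQ1. Its difference was -3.43 (SE 0.086, limma adjusted p = 6.9e-11), and the treatments lay far apart. SCIMP, a transmembrane adaptor of antigen-presenting cells, gave 10.53, 10.73 and 10.54 under DMSO and 7.22, 7.13 and 7.24 under JQ1. The difference was -3.40 (SE 0.14, limma adjusted p = 6.0e-09), again with no overlap. PECAM1, the adhesion molecule CD31, read 10.61, 10.89 and 10.61 under DMSO and 8.04, 8.10 and 7.81 under JQ1. Its difference of -2.72 (limma adjusted p = 1.2e-09) left all JQ1 arrays more than 2 log2 units under all DMSO arrays.

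Further strong falls were found for secreted and transport proteins. NOG encodes noggin, a secreted antagonist of bone morphogenetic proteins. It read 10.54, 10.85 and 10.72 under DMSO and 8.22, 8.40 and 8.69 under JQ1, a difference of -2.27 (SE 0.13, limma adjusted p = 4.2e-08), and its groups were well apart. ABCA9, a lipid transporter of the ABC family, gave 9.15, 9.37 and 9.20 under DMSO and 6.55, 6.85 and 6.62 under JQ1, a difference of -2.57 (limma adjusted p = 1.2e-08). SLCO2B1, an organic anion transporter, read 9.64, 9.71 and 9.64 under DMSO and 7.55, 7.67 and 7.89 under JQ1, a difference of -1.96 (limma adjusted p = 1.1e-08). The 3 values of each treatment lay close together in both transporters, and the groups did not overlap.

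Enzymes and adaptors completed the 20 largest decreases. ACSL5, which activates long-chain fatty acids, read 11.31, 11.44 and 11.31 under DMSO and 9.33, 9.30 and 9.25 under JQ1 (difference -2.06, limma adjusted p = 8.6e-10). STS, the steroid sulfatase, gave 10.96, 11.10 and 11.00 under DMSO and 8.98, 9.13 and 9.05 under JQ1 (difference -1.97, limma adjusted p = 6.5e-09). SAMSN1, an adaptor that restrains B cell activation, read 8.86, 9.13 and 8.80 under DMSO and 6.90, 6.87 and 6.87 under JQ1 (difference -2.05, limma adjusted p = 1.6e-08). None of these genes had overlapping groups. PSTPIP2, an actin-associated F-BAR protein, differed by -2.04, PLAC8 by -2.28, NME8 by -2.35 and the glycosyltransferase UGT3A2 by -1.91. CMAHP, the human pseudogene of a sialic acid hydroxylase, differed by -2.53, and the non-coding gene CCDC26 by -2.63. IL1B, MPO, KCNA3, MYC and IL7R make up the rest and are taken up with their pathways.

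**Figure D3:**
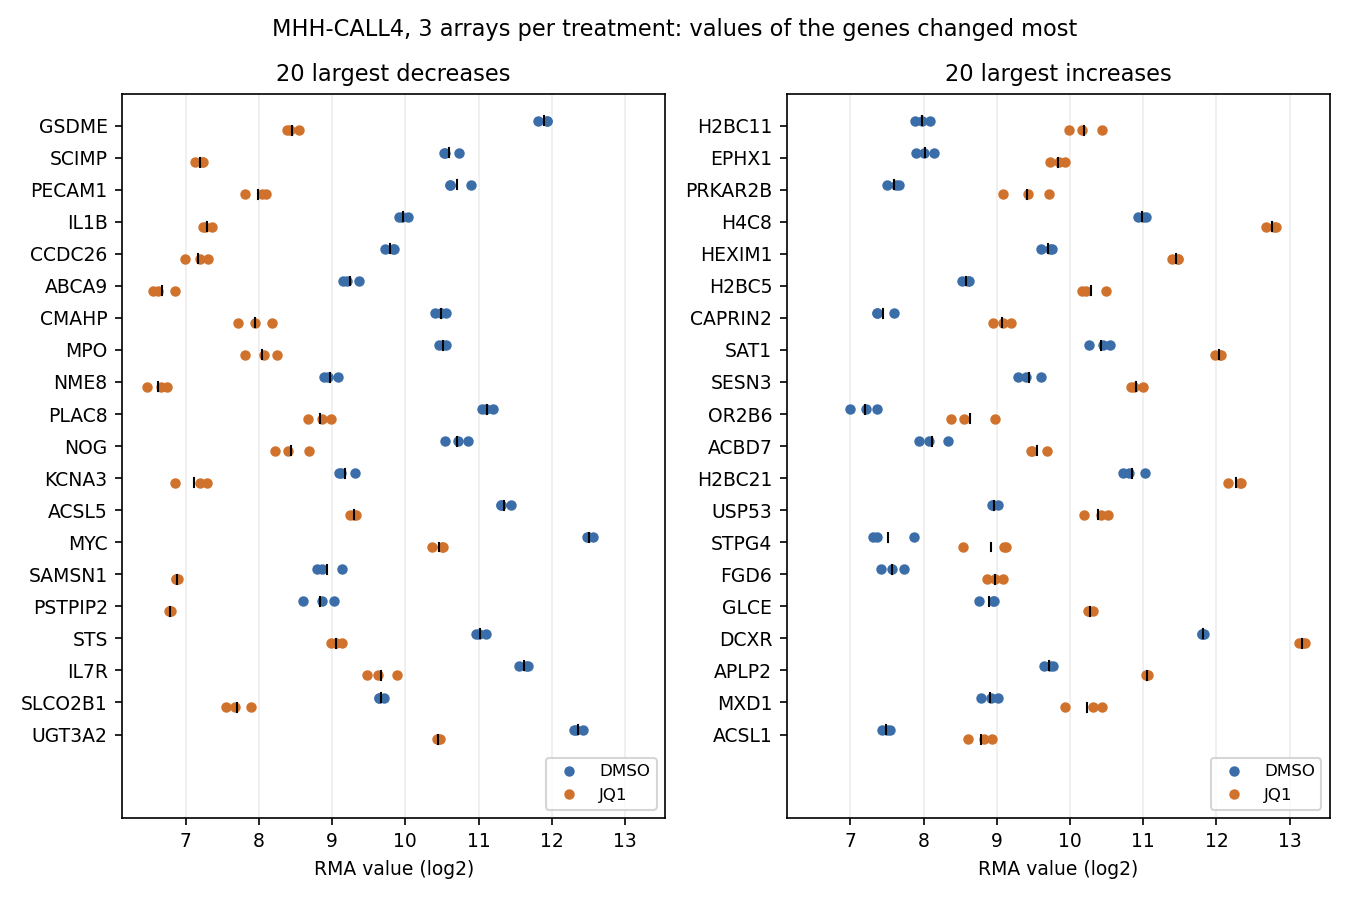
Points are the RMA values (log2, x axis) of the 3 DMSO and 3 JQ1 arrays of MHH-CALL4 for the 20 largest decreases and 20 largest increases, with a vertical tick at each group mean. The DMSO and JQ1 points are apart in every gene shown because only genes with separate groups were eligible. The size of change runs from 3.43 log2 for GSDME, which fell, to 1.30 for ACSL1, which rose.

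The 20 largest increases included 4 histone genes, which are described with their list. HEXIM1, which holds P-TEFb inactive in the 7SK particle, read 9.75, 9.72 and 9.61 under DMSO and 11.39, 11.47 and 11.48 under JQ1. Its rise of 1.76 (SE 0.081, limma adjusted p = 1.1e-08) left the treatments fully apart. EPHX1, microsomal epoxide hydrolase, read 8.14, 7.90 and 8.00 under DMSO and 9.85, 9.93 and 9.72 under JQ1 and rose by 1.82 (limma adjusted p = 5.6e-08). PRKAR2B, a regulatory subunit of protein kinase A, read 7.62, 7.67 and 7.50 under DMSO and 9.71, 9.42 and 9.09 under JQ1 and rose by 1.81 (limma adjusted p = 2.5e-06). In both genes the lowest JQ1 array was above the highest DMSO array by more than 1 log2 unit. The third JQ1 array carried the lowest PRKAR2B value.

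SAT1, the enzyme that acetylates spermidine and spermine for export, read 10.26, 10.55 and 10.45 under DMSO and 12.06, 11.98 and 12.05 under JQ1. It rose by 1.61 (SE 0.087, limma adjusted p = 2.9e-08) with no overlap. SESN3, a sestrin that restrains mTORC1, gave 9.40, 9.61 and 9.29 under DMSO and 10.87, 11.00 and 10.83 under JQ1 and rose by 1.47 (limma adjusted p = 2.1e-07). DCXR, dicarbonyl and L-xylulose reductase, had the tightest groups of the increases at 11.83, 11.80 and 11.80 under DMSO and 13.13, 13.18 and 13.21 under JQ1. Its rise was 1.36 (limma adjusted p = 2.9e-08). The other increases were those of CAPRIN2, an RNA-binding protein (1.63), ACBD7, an acyl-CoA binding protein (1.44), USP53 (1.41), STPG4 (1.41), FGD6, an exchange factor for Cdc42 (1.40), GLCE, which epimerises heparan sulfate (1.38), APLP2, a relative of the amyloid precursor protein (1.34), the olfactory receptor gene OR2B6 (1.44) and ACSL1 (1.30). ACSL1 and ACSL5 encode acyl-CoA synthetases of the same family and were called in opposite directions.

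Among the BET and elongation genes the largest changes were those of HEXIM1, ELL2 and NELFCD. Of 19 measured members 6 were higher (31.6%, beside 11.0% of all genes) and 2 lower (10.5%, beside 17.5%), with a median of 0.056. BRD3 read 10.16, 10.26 and 10.24 under DMSO and 10.20, 10.20 and 10.26 under JQ1, and its groups overlapped (difference -0.0006, limma adjusted p = 1.00). BRD2 was called higher by 0.30 (limma adjusted p = 0.014), and the call was lost without the second DMSO array (adjusted p = 0.051) or without the first JQ1 array (adjusted p = 0.057). ELL2, a subunit of the super elongation complex, rose by 1.19, and AFF1, its scaffold, by 0.37. HEXIM2, the paralog of HEXIM1, fell by 0.42, and NELFCD, a subunit of the pausing factor NELF, fell by 0.90. The HEXIM paralogs were thus called in opposite directions.

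RNA polymerase II and its cofactors were called in both directions. Among 29 polymerase subunits and general factors 5 were higher and 5 lower (17.2% each, beside 11.0% and 17.5% of all genes). POLR2A, the catalytic subunit, rose by 0.76 and TAF12 by 0.63, while GTF2H1 of TFIIH fell by 0.47. Of 27 Mediator subunits 4 were higher and 4 lower (14.8% each, beside 11.0% and 17.5% of all genes). These were led by MED24, which fell by 0.86, and MED9, which fell by 0.48. Among 25 lysine acetyltransferases and deacetylases 5 were higher and 7 lower. The acetyltransferase KAT2A fell by 0.87, and the deacetylase HDAC8 by 0.57. Lysine methyltransferases and demethylases gave 2 higher and 6 lower of 26 (7.69% and 23.1%, beside 11.0% and 17.5% of all genes). The falls included the methyltransferases of histone H3 lysine 9 SUV39H1 (-0.74), SUV39H2 (-0.45), SETDB1 (-0.48) and EHMT2 (-0.46), while EHMT1, another of them, was not called (-0.17). NSD1, which methylates lysine 36, differed by -0.54.

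MYC fell, and members of its network were called in both directions. MYC read 12.56, 12.48 and 12.50 under DMSO and 10.51, 10.50 and 10.37 under JQ1, a difference of -2.05 (SE 0.068, limma adjusted p = 8.6e-10). Its groups were separated by close to 2 log2 units. MXD1, a repressor that competes with MYC for its partner MAX, read 9.01, 8.78 and 8.92 under DMSO and 10.32, 10.43 and 9.93 under JQ1 and rose by 1.32 (limma adjusted p = 4.5e-06). MXD4 rose by 0.52 and MXD3 by 0.33, and the family member MYCL rose by 0.59. Of 2 other antagonists, named after their values were seen, MXI1 was called lower (-0.26, limma adjusted p = 0.0089) and MNT was not called (-0.17). Of the 12 measured members of this network 5 were higher and 3 lower, beside 11.0% and 17.5% of all genes.

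Nucleolar ribosome assembly factors formed the list with the lowest median. These proteins cut, modify and fold pre-ribosomal RNA. Of 39 measured factors 32 (82.1%) were lower and 0 higher, against 17.5% and 11.0% of all genes. In the top class of signal 29.2% of genes were lower. The median was -0.70, and 11 fell at least 2-fold. RRS1, needed for the large subunit, read 10.02, 9.98 and 9.90 under DMSO and 8.51, 8.38 and 8.14 under JQ1 (difference -1.62, limma adjusted p = 4.8e-07). POLR1B, the second largest subunit of RNA polymerase I, read 10.38, 10.34 and 10.29 under DMSO and 9.07, 8.86 and 8.59 under JQ1 (difference -1.49, limma adjusted p = 2.5e-06). Both had separate groups. UTP20 (-1.36), the helicase DDX21 (-1.30), NOP16 (-1.29) and WDR12 (-1.23) followed.

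Genes for the charging of tRNAs fell in large part as well. Of 19 cytosolic aminoacyl-tRNA synthetase genes 16 were lower (84.2%) and 0 higher, with a median of -0.57. WARS1, the tryptophan enzyme, read 11.36, 11.58 and 11.43 under DMSO and 10.43, 10.39 and 10.37 under JQ1. The difference was -1.06 (SE 0.076, limma adjusted p = 4.0e-07), and the groups were apart. The valine enzyme VARS1 (-1.02), the leucine enzyme LARS1 (-0.995), the methionine enzyme MARS1 (-0.97), the tyrosine enzyme YARS1 (-0.92) and the alanine enzyme AARS1 (-0.86) were close to it. The mitochondrial synthetases gave 7 lower and 0 higher of 15, with QRSL1, a subunit of the glutaminyl-tRNA amidotransferase, at -1.11 and NARS2 at -0.63.

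Other parts of the protein synthesis machinery moved less. Translation factors counted 13 lower and 2 higher of 27 (median -0.22). The initiation factor subunits EIF3M (-0.54), EIF3B (-0.48) and EIF2S1 (-0.47) were lower, whereas EIF2S2, the beta subunit of the same eIF2 complex as EIF2S1, was higher (0.86). Of 20 ribosomal proteins of the cytosol with a cluster of their own 5 were lower and 2 higher, with a median of -0.068. These genes have many near-identical pseudogene copies, and their probes may be shared with them. RPS14 differed by -0.98 and RPL4 by 0.60. RPL35 was called higher at 1.09 in the core summary but read -0.15 in the extended summary of the same scans (adjusted p = 0.22).

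Protein folding and degradation genes followed the same side at smaller size. Among 27 chaperones 13 were lower and 1 higher. CCT5 (-0.84) and CCT3 (-0.59), subunits of the ring-shaped chaperonin TRiC, PFDN4 of prefoldin (-0.61) and the ribosome-associated DNAJC2 (-0.61) fell. The HSP40 family gene DNAJB4 was the member called higher (1.21). Of 32 proteasome genes 18 were lower and 0 higher (median -0.23), with the catalytic subunits PSMB5 (-0.61), PSMB6 (-0.51), PSMB8 (-0.59) and PSMB10 (-0.47) among the largest falls. PSMB8 and PSMB10 belong to the immunoproteasome.

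Among RNA processing and transport genes more were called lower than higher. Splicing factors gave 16 lower and 0 higher of 40 (40% lower, beside 29.2% in the top class of signal), led by SNRPD1, a core protein of spliceosomal snRNPs (-0.95). Nuclear transport genes gave 19 lower and 1 higher of 36 (median -0.31). XPOT, which exports tRNA, differed by -1.13, the import receptor IPO8 by -1.15 and IPO4 by -0.87. XPO5, which exports precursor microRNA, differed by -0.57.

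Serine and one-carbon metabolism held some of the largest falls among metabolic genes. Of 14 measured genes 10 were lower and 1 higher, with a median of -0.58. PSAT1, the aminotransferase of serine synthesis, read 10.05, 10.21 and 10.05 under DMSO and 8.44, 8.37 and 8.56 under JQ1. Its difference was -1.65 (SE 0.10, limma adjusted p = 8.5e-08) with no overlap. GLDC, which cleaves glycine in mitochondria, read 8.61, 8.93 and 8.64 under DMSO and 6.58, 7.56 and 7.09 under JQ1 (difference -1.65, limma adjusted p = 1.4e-04). CBS, which turns homocysteine to cystathionine, differed by -1.24, MTHFD1 by -1.04, its mitochondrial relative MTHFD2 by -0.81 and PHGDH, the first enzyme of serine synthesis, by -0.76.

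Most amino acid carriers fell as well. Among 24 measured carriers 14 were lower and 1 higher (median -0.44). SLC7A11, the cystine and glutamate exchanger, read 9.18, 8.96 and 8.88 under DMSO and 7.13, 7.38 and 6.98 under JQ1. The difference was -1.85 (SE 0.15, limma adjusted p = 1.0e-06), and its groups were separate. The glutamine carrier SLC38A5 differed by -1.56, the arginine and lysine carrier SLC7A1 by -1.54, the leucine carrier SLC43A1 by -1.23 and the glycine carrier SLC6A9 by -0.93. SLC7A5, the catalytic chain of the large neutral amino acid carrier, differed by -0.90.

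Nucleotide synthesis was lower at several steps. Of 18 purine genes 9 were lower and 1 higher. ATIC, which catalyses the last steps to inosine monophosphate, differed by -1.32, PFAS by -1.15 and GART by -0.99, all enzymes of the same route. Within the 17 pyrimidine and deoxynucleotide genes 10 were lower and 2 higher. CTPS2, a CTP synthase, differed by -1.25, the mitochondrial DHODH by -0.88 and UCK2 of the salvage route by -0.86. CAD, which starts the pathway, differed by -0.54. TK1 (0.52), thymidine kinase, was among the 2 called higher.

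Polyamine genes were called in both directions. SRM, which makes spermidine, fell by 1.07 (limma adjusted p = 4.5e-07). The catabolic enzymes SAT1 and SMOX, spermine oxidase (0.74), rose, as did the antizyme OAZ2 (0.43), which leads ornithine decarboxylase to degradation. AZIN2, an antizyme inhibitor, rose too (0.60). In all, 5 of 14 members were higher and 2 lower.

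Mitochondrial gene expression was lower in many members at small size. Of 57 mitochondrial ribosomal proteins 35 (61.4%) were lower and 0 higher, with a median of -0.39, led by MRPL24 (-1.09) and MRPS15 (-1.04). For comparison the cytosolic ribosomal proteins above had a median of -0.068, and the difference between these lists was not tested. Import and mtDNA expression genes counted 22 lower and 1 higher of 34. PPRC1, a coactivator of mitochondrial biogenesis, read 10.30, 10.44 and 10.31 under DMSO and 8.89, 8.89 and 8.91 under JQ1 (difference -1.45, limma adjusted p = 2.8e-08), and its groups were apart. TWNK, the helicase of mitochondrial DNA, differed by -1.33 and the transcription factor TFB2M by -0.90. Respiratory chain and citrate cycle genes gave 16 lower and 4 higher of 49. NDUFAF4, an assembly factor of complex I, differed by -1.24, while OGDH, of the citrate cycle, was higher (0.69).

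**Figure D4:**
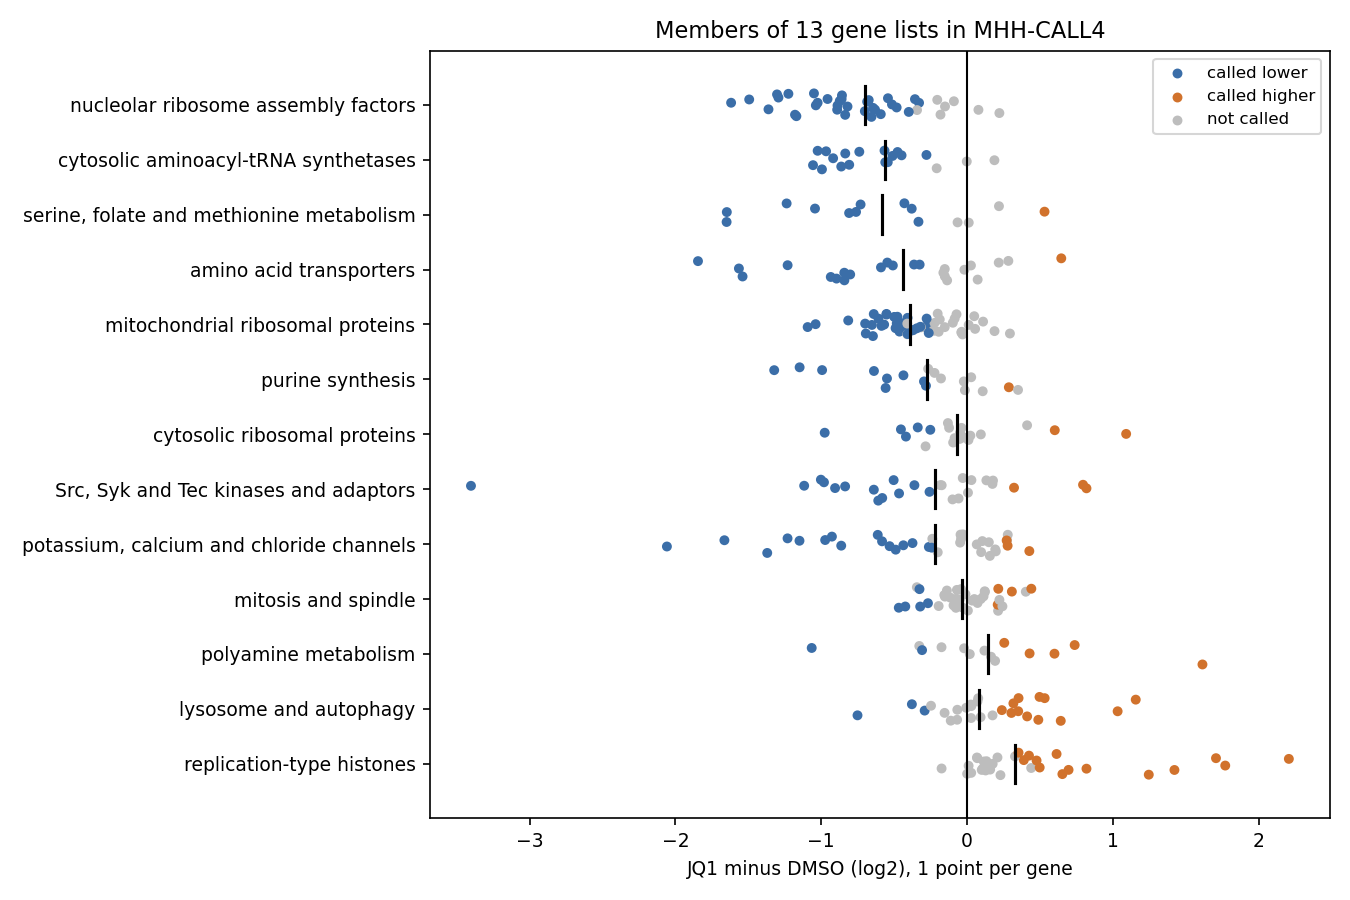
Each point is 1 gene at its JQ1 minus DMSO difference in log2 (x axis), coloured by its limma call, for 13 lists (rows, points spread vertically for visibility), and black ticks mark list medians. Nucleolar factors lie around a median of -0.70 and tRNA synthetases around -0.57, whereas cytosolic ribosomal proteins lie around -0.068 and replication-type histones around 0.33.

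Sugar, lipid and redox metabolism changed in both directions. Glycolysis and pentose phosphate genes gave 12 lower and 4 higher of 27. HK2, an inducible hexokinase, differed by -0.63, while the aldolase gene ALDOC (0.85) and PFKFB3 (0.62), which makes an activator of phosphofructokinase, were higher. RPIA of the pentose route differed by -0.85. In cholesterol and fatty acid synthesis 11 of 27 were lower and 4 higher. The fatty acid genes ELOVL6 (-1.35), ACACA (-0.87), SCD (-0.86) and FASN (-0.60) were lower, and TM7SF2, a sterol reductase, was higher (1.22). Among 22 glutathione and NRF2 target genes 6 were higher and 5 lower, with EPHX1 and SLC7A11 at the extremes. KEAP1, the sensor that holds NRF2 down, differed by -0.72.

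Lysosomal genes were more often higher than lower. Of 28 measured members 12 were higher (42.9% against 11.0% of all genes) and 3 lower. The cathepsin CTSK read 7.20, 7.14 and 7.14 under DMSO and 8.45, 8.46 and 8.03 under JQ1 (difference 1.16, limma adjusted p = 1.3e-05), without overlap. The sialidase NEU1 rose by 1.03, MAP1LC3B, the autophagosome marker LC3B, by 0.64 and the ion channel MCOLN1 by 0.53. CTSS, a cathepsin that acts in antigen presentation, fell by 0.75.

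Replication-type histone genes were the list with the highest median, 0.33. Of 31 measured genes 14 were higher (45.2%) and 0 lower. H2BC11 read 8.09, 7.98 and 7.88 under DMSO and 10.17, 10.43 and 9.98 under JQ1. Its difference was 2.21 (SE 0.13, limma adjusted p = 7.6e-08), and the groups were far apart. H4C8 (1.77), H2BC5 (1.71), H2BC21 (1.42) and H2AC11 (1.25) also rose at least 2-fold. Histone genes are near-identical copies, so the array may not separate members with shared probes. DNA replication genes did not move with them: 15 of 39 were lower and 0 higher, with MCM2 at -0.68, POLE2 at -0.61 and MCM5 at -0.60.

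Mitotic genes were called in both directions. Of 35 members 4 were higher and 5 lower (14.3%, beside 17.5% of all genes and 29.2% in the top class of signal), with a median of -0.032. FOXM1, a mitotic transcription factor, differed by -0.47, PRC1 of the central spindle by -0.42 and PTTG1, securin, by 0.44. In the G1 list 8 of 24 were lower and 2 higher. CCND2, cyclin D2, read 11.91, 12.02 and 11.95 under DMSO and 10.56, 10.57 and 10.56 under JQ1, a difference of -1.40 (limma adjusted p = 1.2e-08) with separate groups. Its kinase partner CDK6 differed by -0.73, CCND3 by -0.39 and E2F5 by -0.89. CDKN1A, the p21 inhibitor, read 10.32, 10.24 and 10.29 under DMSO and 10.43, 10.27 and 10.25 under JQ1, and its groups overlapped (difference 0.032, limma adjusted p = 0.80). Homologous recombination and Fanconi genes gave 7 lower and 3 higher of 32 (21.9% and 9.4%, beside 17.5% and 11.0% of all genes). RAD51B (-0.88), FANCF (-0.77) and RAD51D (-0.74) were among those called lower.

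Genes of cell survival and death changed on both sides. BCL2, the anti-apoptotic founder of its family, read 10.54, 10.73 and 10.58 under DMSO and 8.97, 9.04 and 9.06 under JQ1. The difference was -1.59 (SE 0.072, limma adjusted p = 1.0e-08), and the groups were separate. BCL2L1, which encodes BCL-XL, differed by -0.75. Of the pro-apoptotic members, BCL2L11, which encodes BIM, was higher (0.69), while PMAIP1, which encodes NOXA (-0.85), BID (-0.59) and BAX (-0.51) were lower. The family counted 5 lower and 3 higher of 15. Among TNF receptor and death receptor genes 7 of 26 were lower and 2 higher. FAS read 7.67, 7.87 and 7.71 under DMSO and 6.29, 6.22 and 6.44 under JQ1 (difference -1.43, limma adjusted p = 6.3e-07), with no overlap. CFLAR, an inhibitor of caspase 8, differed by -0.62 and TRAF3 by -0.93.

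The p53 list was split evenly, 7 higher and 7 lower of 22. TP53I3 (0.81), GADD45A (0.57) and SESN1 (0.55) were higher. The negative regulator MDM4 differed by -0.83. Caspase and apoptosis inhibitor genes gave 4 lower and 2 higher of 14, with APAF1, the apoptosome scaffold, at 0.41 and the mitochondrial protease HTRA2 at -0.53.

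Among signalling proteins of lymphocytes calls to the low side outnumbered those to the high side. Of 26 Src, Syk and Tec kinases and adaptors 13 were lower and 3 higher, with a median of -0.22. The share lower was 50%, beside 17.5% of all genes and 29.2% in the top class of signal. After SCIMP the adaptor LAT2 differed by -1.12 and BANK1, a B cell scaffold, by -1.003. SYK, the kinase next to the pre-B cell receptor, read 10.77, 10.86 and 10.73 under DMSO and 9.93, 9.97 and 9.96 under JQ1. It fell by 0.84 (limma adjusted p = 2.8e-05) with separate groups. ZAP70, its relative best known from T cells, differed by -0.98 and LCK by -0.91. The members called higher, named after their values were seen, were the Src family kinases FGR (0.32) and FYN (0.80) and the Tec family kinase TXK (0.82).

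PTPN6, the phosphatase SHP-1 that dampens receptor and JAK signalling, read 10.28, 10.31 and 10.26 under DMSO and 8.80, 8.74 and 8.83 under JQ1. Its difference was -1.49 (SE 0.065, limma adjusted p = 6.5e-09), and no values overlapped. The cytokine-inducible inhibitors CISH (-0.74), SOCS1 (-0.66) and SOCS2 (-0.40) were lower as well, while JAK1 (0.40) and the STAT inhibitor PIAS3 (0.69) were higher. JAK2 read 9.52, 9.76 and 9.58 under DMSO and 9.59, 9.80 and 9.44 under JQ1, with overlapping groups (difference -0.0084, limma adjusted p = 0.97). In all, 4 of 19 genes were lower and 3 higher (21.1% and 15.8%, beside 17.5% and 11.0% of all genes), with a median of 0.019.

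Among cytokine receptors 8 of 24 were lower and 2 higher. IL7R, the alpha chain of the interleukin 7 receptor, read 11.67, 11.65 and 11.55 under DMSO and 9.88, 9.63 and 9.48 under JQ1 (difference -1.96, limma adjusted p = 6.2e-08). Its lowest value was that of the third JQ1 array, and the groups were apart. IL4R differed by -0.46. Of the signal transducers, STAT6 differed by -0.51, while STAT3 (0.48) and the interferon factor IRF7 (0.74) were higher, and the list gave 3 higher and 2 lower of 11.

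Ras, PI3K and cyclic AMP signalling each showed a mixture. In the ERK list 8 of 23 were lower and 3 higher. The Ras exchange factors RASGRP2 (-1.20) and RASGRP1 (-0.85) and the kinase gene MAPK3 (-0.76) led the falls. SPRY1, a feedback inhibitor, was called lower at -0.75 in the core summary but read 0.071 in the extended one (adjusted p = 0.53). In the PI3K and mTOR list 8 were lower and 4 higher of 25, the inositol phosphatase INPP5D, known as SHIP1, at -0.56 and DDIT4, an inhibitor of mTORC1, at -0.66. Cyclic AMP genes gave 8 lower and 2 higher of 22. PDE4B, a phosphodiesterase that degrades cyclic AMP, differed by -1.09 and the catalytic subunit PRKACB by -0.65, opposite to the regulatory PRKAR2B.

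Channel genes held 5 falls of at least 2-fold. Of 34 potassium, calcium and chloride channel and pump genes 16 were lower and 3 higher, with a median of -0.22. KCNA3, the lymphocyte potassium channel Kv1.3, read 9.31, 9.12 and 9.09 under DMSO and 7.29, 7.20 and 6.85 under JQ1 (difference -2.06, limma adjusted p = 9.5e-08). KCNQ5 read 11.10, 10.94 and 10.99 under DMSO and 9.48, 9.44 and 9.13 under JQ1 (difference -1.66, limma adjusted p = 3.1e-07). Neither gene had overlapping groups. The cation channel TRPM2 (-1.37) and the ATP-gated channels P2RX1 (-1.23), P2RX5 (-1.15) and P2RX7 (-0.97) were lower too.

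Adhesion genes were lower for several leukocyte proteins. Of 27 adhesion genes 10 were lower and 2 higher. Both chains of the leukocyte integrin LFA-1 fell, ITGAL by 1.26 and ITGB2 by 1.21, as did its ligand gene ICAM2 by 0.92. CD58 differed by -0.81 and ALCAM by -0.70. Actin and tubulin genes gave 4 lower and 3 higher of 26 (15.4% and 11.5%, beside 17.5% and 11.0% of all genes), with VCL, vinculin, higher at 1.20. B cell co-receptors and tetraspanins gave 6 lower and 3 higher of 29 (20.7% and 10.3%, beside 17.5% and 11.0% of all genes). Among them CD72, an inhibitory co-receptor, read 11.35, 11.48 and 11.49 under DMSO and 9.84, 9.63 and 9.82 under JQ1 (difference -1.68, limma adjusted p = 1.6e-08). Its groups were apart.

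Cytokine and innate immune genes included some of the strongest falls. IL1B, interleukin 1 beta, read 10.03, 9.91 and 9.95 under DMSO and 7.36, 7.26 and 7.24 under JQ1. It differed by -2.67 (limma adjusted p = 6.5e-09) with no overlap. CCL2, a monocyte attractant, read 9.08, 9.44 and 9.33 under DMSO and 7.19, 7.38 and 7.62 under JQ1 (difference -1.88, limma adjusted p = 4.0e-07), and LTA, lymphotoxin alpha, read 10.07, 9.85 and 9.91 under DMSO and 8.23, 8.26 and 8.38 under JQ1 (difference -1.66, limma adjusted p = 5.8e-08). Both had separate groups, while TGFB1 was higher (0.75). The cytokine and chemokine list counted 9 lower and 4 higher of 32, with a median of -0.022 that changed sign under 6 of the 14 alternative settings. Of 24 Toll-like receptor and inflammasome genes 9 were lower and 1 higher, among them TLR10 (-1.43), TLR7 (-0.95), TLR1 (-0.78) and the kinase IRAK1 (-0.87). Chemokine and lipid mediator receptors gave 6 lower and 3 higher of 22. PTGER4, a prostaglandin receptor, differed by -0.92, and LPAR6, a lysophosphatidic acid receptor, by 0.85. NF-kappaB genes gave 6 lower and 2 higher of 21, with the feedback inhibitor TNFAIP3 at -0.72 and the subunit REL at 0.67.

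Antigen presentation was lower in part. Of 9 class II genes and regulators 6 were lower and 0 higher, led by their master regulator CIITA (-0.71) and by RFX5 (-0.56). Class I and peptide processing genes gave 6 lower and 1 higher of 12, with the peptide-trimming enzymes ERAP1 (-0.72) and ERAP2 (-0.72) at the low end.

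Transcription factor families gave calls in both directions. Of 16 ETS factors 6 were lower and 0 higher. ERG read 11.72, 11.86 and 11.76 under DMSO and 10.39, 10.43 and 10.45 under JQ1 (difference -1.36, limma adjusted p = 1.6e-08), with separate groups, and ETS1 (-0.59) and ETV6 (-0.58) followed. Among 26 immediate early and AP-1 genes 8 were higher and 5 lower, with JUN (0.84), JUND (0.70) and NFIL3 (0.60) higher and BACH2 (-0.48) lower. The glucocorticoid receptor NR3C1 differed by -0.71 and the clock gene NR1D2 by -0.75. The nuclear receptor list counted 3 lower and 2 higher of 23 (13.0% and 8.70%, beside 17.5% and 11.0% of all genes). Glucocorticoid response genes gave 5 lower and 4 higher of 16, RCAN1, a calcineurin inhibitor, at -0.91 and TXNIP at 0.65. Kruppel-like factors gave 2 higher and 1 lower of 16 (12.5% and 6.25%, beside 11.0% and 17.5% of all genes), with KLF10 at 0.40. Homeobox factors gave 2 lower and 0 higher of 13 (15.4% lower, beside 17.5%), with ZEB2 at -0.34. Wnt and Notch genes gave 6 higher and 3 lower of 27, and TGF-beta and SMAD genes 6 higher and 3 lower of 24. The receptor FZD6 differed by -0.71, NOTCH1 by 0.39 and the activin receptor ACVR1 by 0.73.

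Where the count in 1 direction was 0 by the adjusted limma test, few genes passed at an unadjusted p under 0.05. In the high direction there was 1 such gene each among cytosolic tRNA synthetases, mitochondrial ribosomal proteins, splicing factors and DNA replication genes, and 2 among homeobox factors. There were 0 among nucleolar factors, mitochondrial synthetases, proteasome genes, ETS factors and class II genes, and 0 histone genes in the low direction.

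**Figure D5:**
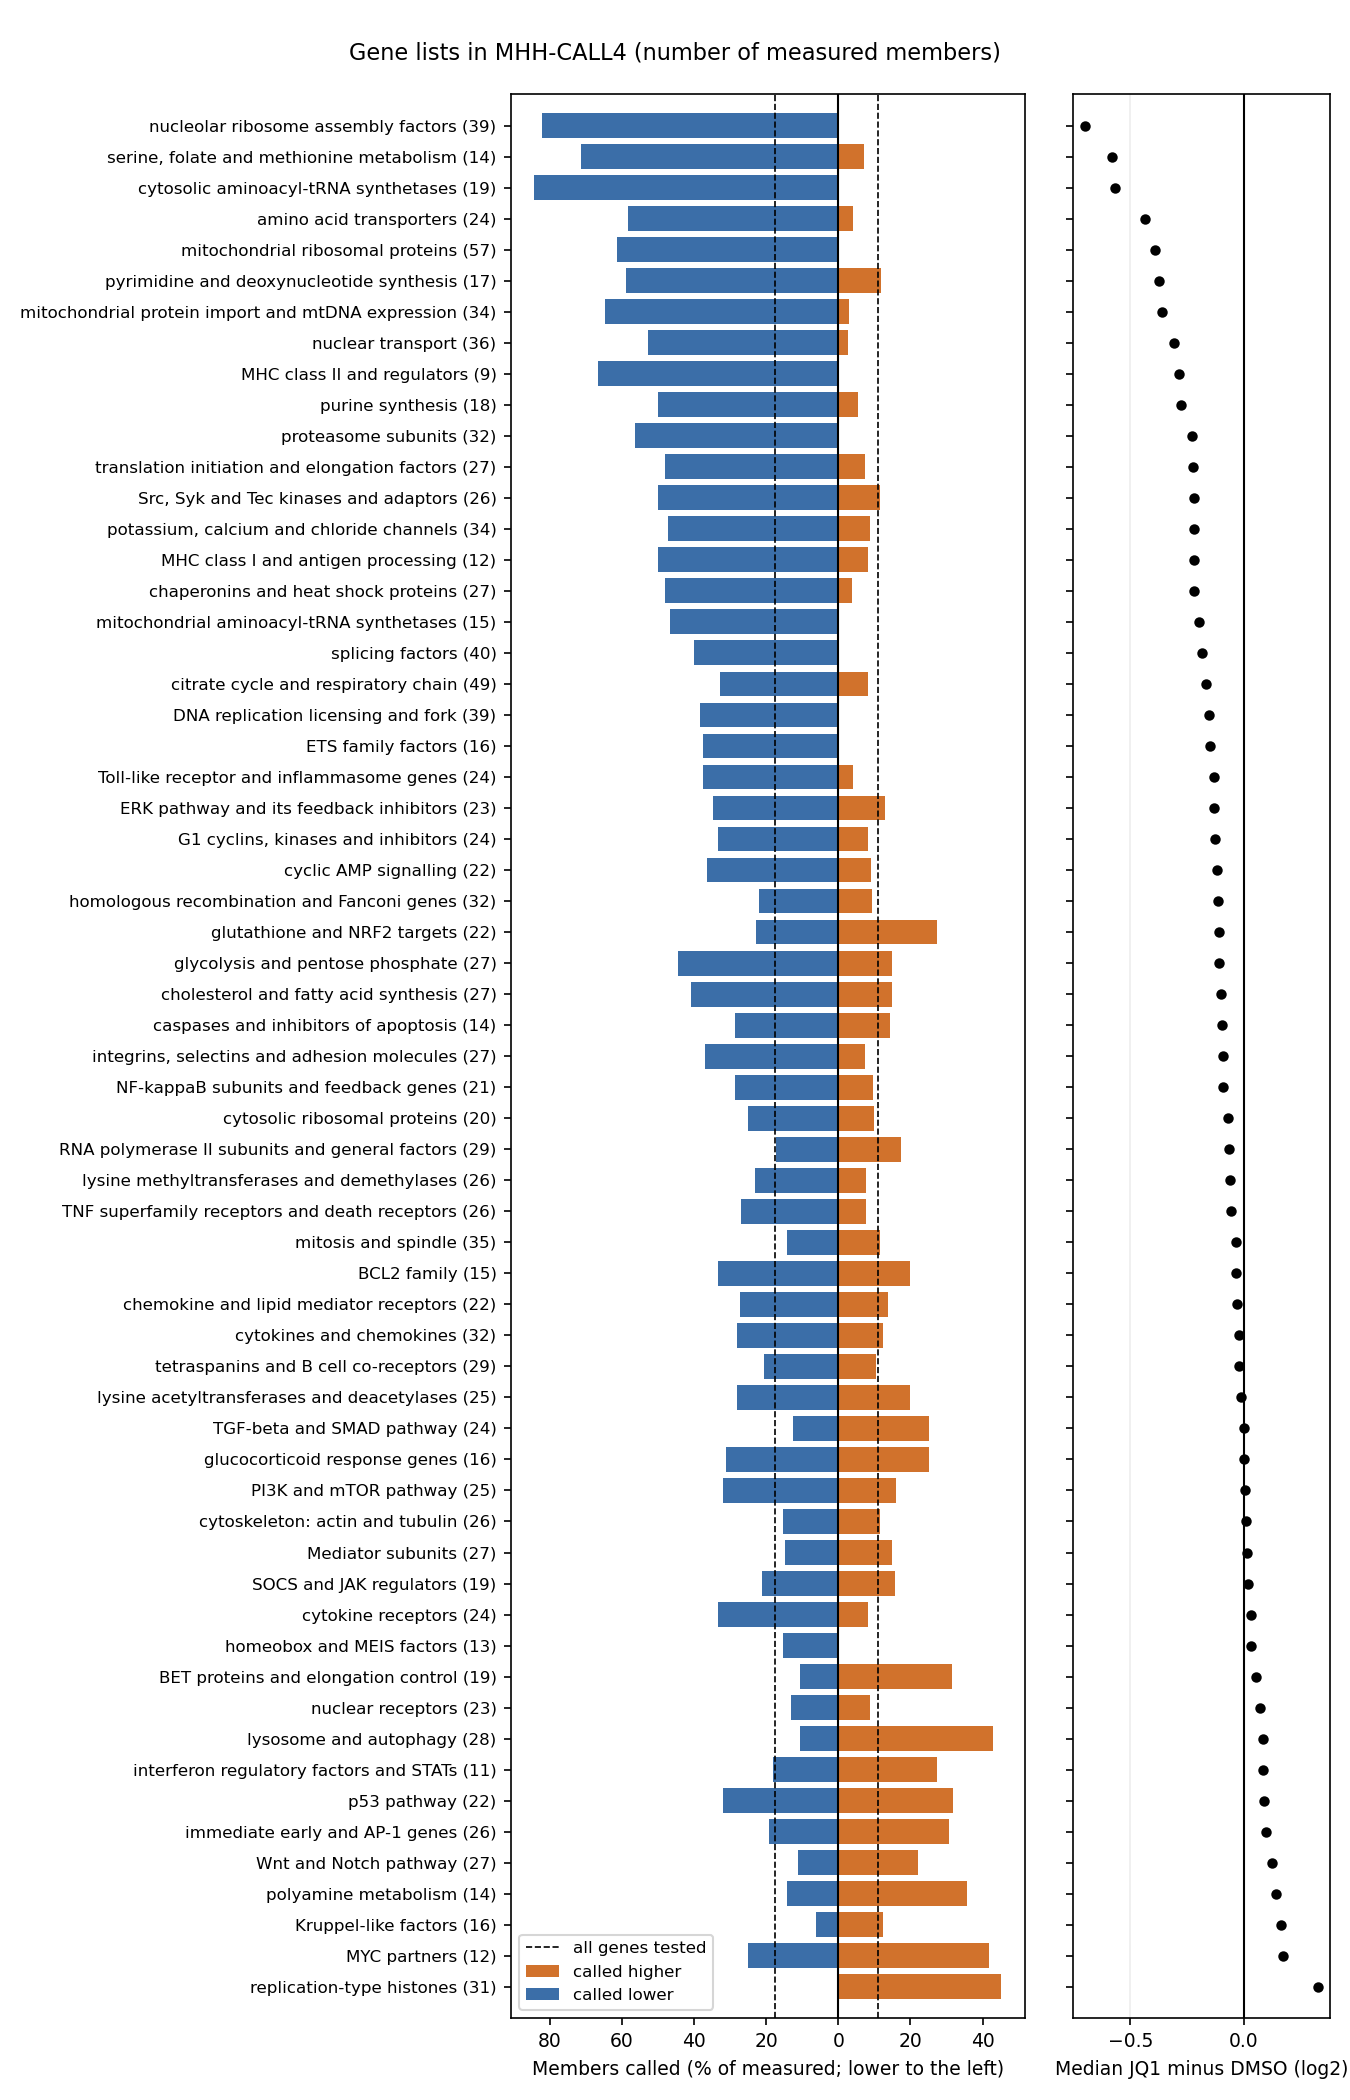
Bars give the percentage of measured members called lower (left) and higher (right) for 61 gene lists, with dashed lines at the 17.5% and 11.0% of all genes, and points give the median JQ1 minus DMSO in log2. Nucleolar factors, tRNA synthetases and serine metabolism stand at 1 end and replication-type histones at the other.

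Most measured markers of B cell precursors read high. Their DMSO means ran from 6.93 to 13.18 with a median of 12.34, and 16 of 18 listed markers were measured. The mean RMA value of 16 B lineage markers ran from 11.76 to 11.88 under DMSO and 11.57 to 11.62 under JQ1. Of these 6 were lower (37.5%, beside 17.5% of all genes and 29.2% in the top class of signal) and 0 higher. The other 10 were not called, among them PAX5 (-0.035), CD79B (-0.078), RAG1 (-0.041), DNTT (0.051) and CD34 (0.041). VPREB1, the surrogate light chain, read 11.41, 11.61 and 11.65 under DMSO and 10.62, 10.54 and 10.43 under JQ1 (difference -1.03, limma adjusted p = 3.6e-06), with no overlap. CD79A, a signalling chain of the receptor, differed by -0.57, TCF3 by -0.53 and EBF1 by -0.45, factors of early B cell identity. In bulk RNA fewer cells of a type and less RNA per cell cannot be told apart.

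Markers of other cell types were measured beside these falls. Of 14 myeloid markers 3 were lower and 1 higher (21.4% and 7.14%, beside 17.5% and 11.0% of all genes), with a median of 0.034. Their mean ran from 8.01 to 8.11 under DMSO and 7.75 to 7.88 under JQ1. MPO, myeloperoxidase, read 10.46, 10.56 and 10.51 under DMSO and 7.81, 8.07 and 8.25 under JQ1 (difference -2.47, limma adjusted p = 3.1e-09), with groups apart. CTSG, cathepsin G, differed by -1.35 and LYZ, lysozyme, by -0.83. ELANE (0.079), AZU1 (0.11) and PRTN3 (0.13) were among the 10 myeloid markers not called. Of 15 T and NK cell markers 3 were lower (20.0%, beside 17.5% of all genes) and 0 higher. Their mean ran from 7.11 to 7.13 under DMSO and 6.87 to 7.13 under JQ1. NKG7 (-0.96), ZAP70 and LCK were the markers called lower. Among 7 erythroid and megakaryocyte markers no gene was called by limma (1 at an unadjusted p under 0.05), and the 9 stromal and endothelial markers gave 1 lower, PDGFRB (-0.85). RMA values have no zero, so no marker can be called absent. The part of other cell types in the falls of IL1B, CCL2 or the T cell kinases was not tested.

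Promoter windows were searched for CACGTG, the E-box that MYC and its partner MAX bind, which reads the same on both strands. RefSeq windows (GRCh38.p14) of 300 bases, from 250 before to 50 after the start, were matched for 11385 of the genes tested. The windows below are 60-base stretches upstream of genes changed at least 2-fold, with the E-box in capitals, and are shown because both directions of change occur among genes with the motif.
ABCA9 (chr17:69061041-69061100, minus strand): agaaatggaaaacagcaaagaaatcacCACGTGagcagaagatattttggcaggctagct
CCDC86 (chr11:60842053-60842112, plus strand): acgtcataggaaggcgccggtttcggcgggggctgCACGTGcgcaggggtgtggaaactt
SLC38A5 (chrX:48470434-48470493, minus strand): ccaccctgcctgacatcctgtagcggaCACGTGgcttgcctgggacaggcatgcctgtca
EXOSC5 (chr19:41397416-41397475, minus strand): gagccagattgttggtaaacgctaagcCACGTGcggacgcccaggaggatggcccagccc
COA7 (chr1:52698348-52698407, minus strand): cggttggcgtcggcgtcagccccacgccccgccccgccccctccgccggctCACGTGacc
PRKAR2B (chr7:107044541-107044600, plus strand): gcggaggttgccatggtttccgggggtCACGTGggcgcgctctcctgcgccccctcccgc
The first 5 genes were lower, CCDC86, a nucleolar protein, by 1.78, EXOSC5, a subunit of the RNA exosome, by 1.56 and COA7, an assembly factor of the respiratory chain, by 1.48, with ABCA9 and SLC38A5 as given above. PRKAR2B, with the same letters 137 bases before its start, was higher.

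The E-box was found in 8.99% of all 11385 windows. It was in 13.3% of windows of genes called lower, 7.91% of those called higher and 8.06% of those not called. Among genes at least 2-fold lower it was in 30 of 175 (17.1%), and among those at least 2-fold higher in 5 of 53 (9.43%). At or above the median signal the shares were 13.6% for genes called lower and 10.0% for those not called. Nucleolar factors had it in 14 of 33 windows (42.4%), tRNA synthetases in 1 of 16 and replication-type histones in 0 of 29. The AP-1 motif TGACTCA and the STAT motif TTCNNNGAA, searched on both strands, were in 3.57% and 7.00% of all windows and in 3.29% and 7.75% of those of genes called lower. The median GC content was 63.3% over all windows, 64.0% for genes called lower and 65.3% for those called higher. These shares describe letters in a window and were not tested.

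Neighbouring genes rarely shared large changes. Of the 227 genes at least 2-fold lower 83 (36.6%) had an adjacent tested gene called lower, beside 31.5% of all genes. For 12 of them (5.29%) the neighbour was itself at least 2-fold lower, beside 3.16% of all genes, and for 4 of the 59 higher genes (6.78%) the neighbour was at least 2-fold higher, beside 0.831%. There were 8 such pairs. On chromosome 8 MYC lay next to CCDC26 among the genes tested, and both fell. PPRC1 and NOLC1 on chromosome 10 were lower (-1.45 and -1.04), as were SLCO2B1 and ARRB1 on chromosome 11 (ARRB1 -1.45), OAS3 and OAS2 on chromosome 12 (-1.05 and -1.07), APOL3 and APOL4 on chromosome 22 (-1.42 and -1.26) and ANP32B and TRIM14 on chromosome 9 (-1.16 and -1.18). The higher pairs were H2BC11 and H2AC11 in the histone cluster of chromosome 6 and OR2AK2 and OR2L2, olfactory receptor genes of chromosome 1 (1.59 and 1.69). OAS genes, APOL genes and olfactory receptors are families of like sequence.

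MUTZ-5 shared most of these changes. Of the 227 genes at least 2-fold lower in MHH-CALL4 202 were also called lower in MUTZ-5, where 13.0% of all genes were, and of the 59 higher genes 51 were called higher, against 9.06%. The difference between the lines was called for 218 genes (1.53%), 60 of them among the 286. GCSAM, a germinal centre signalling protein, read 11.58, 11.55 and 11.59 under DMSO and 9.93, 9.88 and 9.77 under JQ1. It fell by 1.71 in MHH-CALL4 and differed by 0.33 in MUTZ-5, and the difference between the lines was 2.04 (limma adjusted p = 6.2e-06). It was the gene of the 286 called in the opposite direction in MUTZ-5. LGR5, a receptor for R-spondins, read 11.30, 11.60 and 11.42 under DMSO and 9.70, 9.62 and 9.65 under JQ1. Its change was -1.78 in MHH-CALL4 and -0.016 in MUTZ-5 (limma adjusted p of the difference = 1.3e-05). The other way, SERPINI1, neuroserpin, was called higher by 0.63 in MHH-CALL4 and by 2.24 in MUTZ-5 (limma adjusted p of the difference = 0.0050). Its MHH-CALL4 call was lost without the third DMSO array (adjusted p = 0.067), without the first JQ1 array (adjusted p = 0.079) and with cyclic loess scaling (adjusted p = 0.080).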

How the data were processed

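Each value is an RMA log2 value that the authors made with Affymetrix Expression Console from the scans, per the series' design text and the submitters' processing notes; the program's version and the genome build are not given in the sources used here. Core values of 22011 transcript clusters were read, and only the 14432 with 1 gene symbol were kept. For 197 genes with several clusters the brightest was used, which left 14232 genes without a filter on low values. With limma 3.58.1 (R 4.3.3) the 12 arrays were fitted jointly, 1 mean for each of 4 groups, and moderated with eBayes; tests were two-sided with Benjamini-Hochberg adjustment over all genes.

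The members, the 66 gene lists and the rules were chosen with earlier results of these data known, and lists overlap. Named genes are MYC, IL7R, HEXIM1, SERPINI1, BRD2, BRD3, CDKN1A, JAK2 and BCL2, the 20 largest changes each way with separate groups and a higher group mean of at least the median of 8.52, up to 6 called genes per list, up to 5 per direction with the largest difference between lines, and 6 E-box promoters. Of the list genes, those whose call an alternative removed were left out, except where stated. The neighbours were chosen after their values were seen. On simulated data with the real levels the fit recovered 74.6% of changes of 0.5 log2, 98.5% of 1 log2 and 100.0% of 2 log2, with 8 false among 190 calls. The simulation changed only 67, 67 and 66 genes at these sizes, with noise drawn independently for each gene. In the real data 28.5% of genes were called, so these rates need not hold for the real calls. The number of arrays limits the precision. Results for some items are not reported here.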

Additional observations from a re-analysis of the deposited data

Results flagged for a closer look

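In 36 of the 269 named genes the response to JQ1 differed between MHH-CALL4 and MUTZ-5 by the limma test of the difference itself, adjusted over all genes. Some genes were named for such a difference or for a large change in MHH-CALL4, so this count is a description and is not set against the share of all genes. Values below are the MUTZ-5 response minus the MHH-CALL4 response in log2, so a positive value of a gene that fell means a smaller fall, or none, in MUTZ-5. The widest gaps were those of IL1B (2.34), GCSAM (2.04), MPO (1.99), KCNQ5 (1.87), LGR5 (1.77), SAMSN1 (1.76), PSTPIP2 (1.65) and SLCO2B1 (1.56). In MUTZ-5 itself IL1B differed by -0.34, MPO by -0.48, KCNQ5 by 0.20 and SAMSN1 by -0.29. IL1B and SAMSN1 were not called in MUTZ-5. Further large falls of MHH-CALL4 were called in MUTZ-5 at smaller size, with gaps of 1.18 for GSDME, 1.36 for SCIMP, 1.23 for PECAM1, 1.31 for CMAHP, 1.04 for ABCA9, 1.02 for NOG, 0.94 for PLAC8, 1.06 for UGT3A2 and 0.65 for STS.

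Named members of this set included the survival and growth genes BCL2 (0.86) and MYC (0.73). Others were the channel KCNA3 (1.34) and the transcription factors ERG (0.83), ETV6 (0.65), BACH2 (0.72) and CIITA (0.58). The signalling genes RASGRP1 (0.76) and RCAN1 (0.81) belonged to it too. Among metabolic genes CBS differed between the lines by 1.25, PHGDH by 0.86 and AARS1 by 0.52. CBS and PHGDH differed in MUTZ-5 by 0.0081 and 0.10. The myeloid genes CTSG (1.32) and LYZ (1.03) also differed. SLC7A5 fell further in MUTZ-5 (-0.46). Of the genes that rose, H2BC11 (-1.003) and H4C8 (-1.23) rose less in MUTZ-5, while FGD6 (0.96) and SERPINI1 (1.60) rose more.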

How the results depend on the processing

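Over 14 alternative settings the count of called genes lay between 2947 and 4484, and the count changed at least 2-fold between 196 (extended summaries) and 302. Leaving out each MHH-CALL4 array in turn gave 2947 to 3485 called genes, 1007 to 1259 called higher and 1940 to 2277 called lower, with the fewest without the second DMSO array. The share of falls among calls was 51.5% with median centring, 56.0% with cyclic loess, 59.0% with extended summaries, 64.1% with a replicate block and 67.7% where only genes of at least median signal were tested, and 63.9% to 65.8% when each array was left out in turn. The difference between the lines was called for 136 genes at or above the median signal and for 157 to 360 genes when each of the 12 arrays was left out in turn, the most without the third MUTZ-5 DMSO array. Nothing in the labels pairs same-numbered arrays, and the data did not settle it: deviations of same-numbered DMSO and JQ1 arrays correlated at 0.30, 0.070 and 0.23 in MHH-CALL4, where the second DMSO array correlated best with the third JQ1 array, and at -0.17, -0.21 and -0.44 in MUTZ-5. With the replicate number as a block 3415 genes were called and the difference between the lines was called for 136. SPRY1 (0.071) and RPL35 (-0.15) turned in direction with the extended summaries. Some large changes kept their direction there at smaller size, with NOG at -1.17, CCL2 at -1.07, GLDC at -0.79, CBS at -0.47 and H2BC11 at 1.53. Others hardly moved, such as IL7R (-1.95) and HEXIM1 (1.76). The cause of these shifts was not tested. The medians of 44 of the 66 lists kept their sign in all 14 settings. Without detection calls, signal over background is unknown, and changes of genes at low signal are the least certain.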
